A study of Harpegnathos saltator with 35 samples.

Results

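E75 (LOC105187469) is the ant counterpart of a nuclear receptor gene that stands among the first genes switched on by ecdysone in insects. It is 1 of 14001 genes in the deposited expression table and was taken by its row, across 35 libraries in 8 groups. Each library held polyadenylated RNA from a primary neuronal culture of the ant Harpegnathos saltator, plated from dissociated central brains. All cultures shared a medium with progesterone, and all had honeybee pupal extract until the fourth day. For 5 days the medium held one hormone at 2 µM, 20-hydroxyecdysone (20E, the steroid that drives moulting) or juvenile hormone III (JH3). The medium was then replaced by one with 2 µM of the other hormone, or with the solvent DMSO for 30 min in the baselines. Whether the DMSO medium still held the culture hormone is not given in the labels. The groups were the 20E baseline (5 cultures), 20E cultures switched to JH3 over 30 min (3), 6 h (5) or 24 h (3), the JH3 baseline (4), and JH3 cultures switched to 20E over 30 min (5), 6 h (6) or 24 h (4). The baselines thus received a solvent control at 30 min alone, and the switches at 6 h and 24 h had no solvent control of their own time. Each switch also added a hormone while it withdrew the other, and the groups cannot tell these apart. Below, a rise or effect of 20E or JH3 stands for the switch as a whole. Replicates were independent cultures, per the series' design text.

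In insects 20E binds a receptor made of the nuclear receptors Ecr and usp, and this complex switches on a small set of early genes, of which E75 is one. In Drosophila the E75 protein binds heme in its ligand pocket, responds to nitric oxide through that heme, and can block the nuclear receptor Hr3, which itself activates ftz-f1 later in the cascade. Early genes in this scheme turn other ecdysone genes on or off, so that a pulse of hormone is followed by successive waves of transcription. In adult insects ecdysone and juvenile hormone also act on the nervous system and on reproductive and social states. RefSeq lists 3 transcripts for E75, and the deposited values are per gene, so they do not separate isoforms.

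The libraries held between 5937818 and 22650118 reads, with a median of 10844772, recovered from the steps of the deposited values. Of these, 2834 to 72889 reads fell on E75. All 10 measured neuron markers were present in every library, the lowest being the synaptic gene Syx1A at 16.3 FPKM (fragments per kilobase of gene, scaled to library size). Markers of other cells were present too, with sums over libraries of 28.5 to 98.4 FPKM for 5 glial genes, 41.7 to 86.6 for 9 muscle genes, 34.3 to 183 for 6 hemocyte and matrix genes, 46.4 to 130 for 3 fat body genes, 3.01 to 136 for 6 photoreceptor genes and 10.7 to 92.8 for 3 tracheal genes. Replicate 4 of the JH3 baseline had the lowest E75 level of all libraries. Replicate 5 of the JH3 cultures after 30 min of 20E had the nuclear receptor gene Hr4 at 40.1 FPKM, where the other 4 cultures had 4.90 to 6.49 FPKM. E75 was also compared without these 2 libraries.

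In cultures kept in JH3 and then switched to 20E, E75 was more than 10-fold higher by 6 h. The level was still as high at 24 h. In the JH3 baseline the 4 cultures had 59.4, 45.6, 44.3 and 30.6 FPKM. After 30 min of 20E the 5 cultures had 47.9, 52.3, 41.3, 41.2 and 52.1 FPKM, within the range of the baseline. After 6 h the 6 cultures ran from 406 to 559 FPKM with a median of 496 FPKM. After 24 h the 4 cultures had 627, 395, 537 and 507 FPKM. Every one of the 10 cultures at 6 h or 24 h was above every one of the other 25 libraries, and no value lay between 124 and 395 FPKM. The means were 45.0 ± 11.8 FPKM in the JH3 baseline (SD, n = 4), 46.9 ± 5.50 at 30 min (n = 5), 488 ± 69.7 at 6 h (n = 6) and 517 ± 96.0 at 24 h (n = 4).

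**Figure D1:**
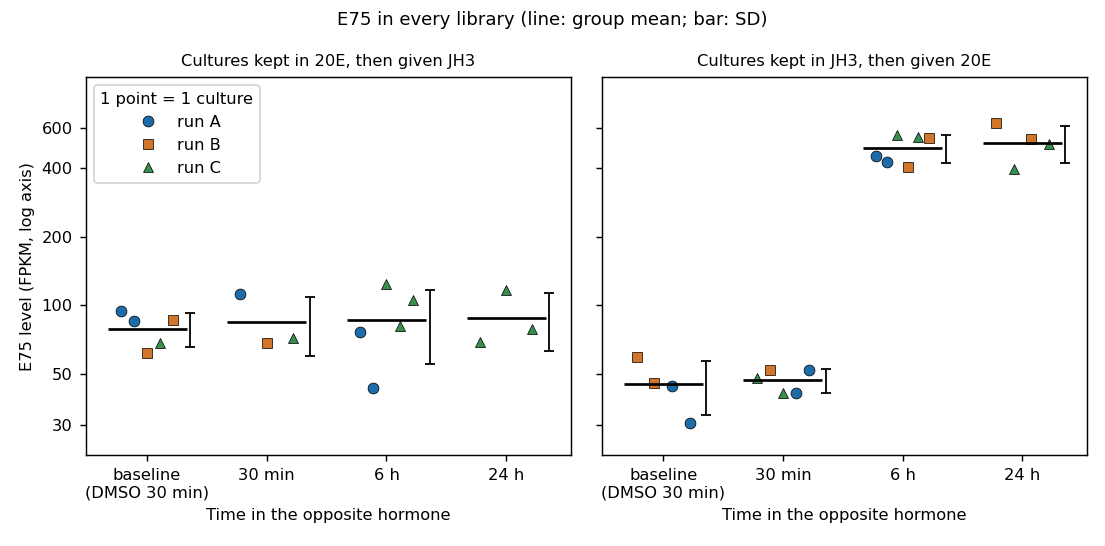
E75 level in FPKM on a log axis, with 1 point per culture, coloured and shaped by sequencing run; horizontal lines are group means and bars the SD. The left panel holds cultures kept in 20E and then given JH3, between 43.3 and 124 FPKM at every time. The right panel holds cultures kept in JH3 and then given 20E, where the 10 cultures at 6 h and 24 h sit between 395 and 627 FPKM and the other 9 between 30.6 and 59.4 FPKM.

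Fold changes and tests below come from limma on log2(FPKM + 1), adjusted for 3 sequencing runs, with Benjamini-Hochberg adjustment over all 9873 tested genes. At 6 h of 20E the log2 fold change of E75 over the JH3 baseline was 3.41 (SE 0.22, adjusted p = 2.45e-11), a 10.7-fold rise with a 95% interval of 7.76 to 14.6. Of all tested genes 0.506% were called in this comparison, 47 higher (0.476%) and 3 lower (0.0304%). E75 had both the largest fold change and the smallest p among them, and it kept the largest fold change in all 25 alternative analyses. The next genes by fold change were LOC105190091, at 2.31, and sing, at 2.25. At 24 h the fold change was 3.44 (SE 0.25, adjusted p = 2.82e-10), or 10.8-fold (7.60 to 15.5), where 5.22% of genes were called, 3.18% higher and 2.04% lower. Here the ABC transporter gene E23 had the larger fold change, at 3.82, while E75 had the smallest p in this fit. Over 22 alternative analyses at 24 h, E75 fell as low as rank 5 by fold change and rank 8 by p. Between 24 h and 6 h of 20E the difference for E75 was 0.03 (SE 0.22, adjusted p = 0.967), with an interval of 0.742-fold to 1.40-fold, while 2.81% of genes were called. At 30 min it was 0.08 (SE 0.23, adjusted p = 0.999), with an interval of 0.757-fold to 1.47-fold, and limma called 0 genes, with 168 at an unadjusted p under 0.05.

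The rise was seen in run A, in runs B and C, and without the 2 libraries named above. Within run A the fold change at 6 h was 3.53 (SE 0.29, adjusted p = 0.00531), while runs B and C together gave 3.31 (SE 0.24). At 24 h run A held no library, and runs B and C gave 3.31. With both of these libraries left out the values were 3.26 at 6 h and 3.29 at 24 h. The summed level of the neuron markers was 657 to 1092 FPKM at 6 h and 890 to 1103 FPKM at 24 h, against 638 to 925 FPKM in the JH3 baseline. These sums overlapped with the baseline, while the E75 levels did not. The 6 photoreceptor markers summed to 4.86 to 120 FPKM at 6 h and 5.45 to 7.96 FPKM at 24 h, against 3.56 to 17.5 FPKM in the JH3 baseline. The 3 fat body markers summed to 54.1 to 112 FPKM at 6 h and 97.7 to 130 FPKM at 24 h, against 51.5 to 85.8 FPKM in the JH3 baseline, so that at 24 h their sums did not overlap with the baseline. The 3 tracheal markers summed to 21.8 to 49.2 FPKM at 24 h, against 12.5 to 26.6 FPKM in the JH3 baseline. Of the tested marker genes of all 7 cell types, 0 were called at 6 h, where 0.506% of all genes were. At 24 h 1 of 5 glial and 1 of 3 tracheal genes were higher, where 3.18% of all genes were. These counts say nothing particular about the markers. Their part in the rise of E75 was not tested. In bulk RNA of this kind more cells of a type and more RNA per cell cannot be told apart.

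By FPKM, E75 became one of the most abundant messages of the culture. Counted from the top of all genes, it ranked 440 to 987 in the libraries of the JH3 baseline, 475 to 754 at 30 min of 20E, 11 to 27 at 6 h and 10 to 23 at 24 h.

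**Figure D2:**
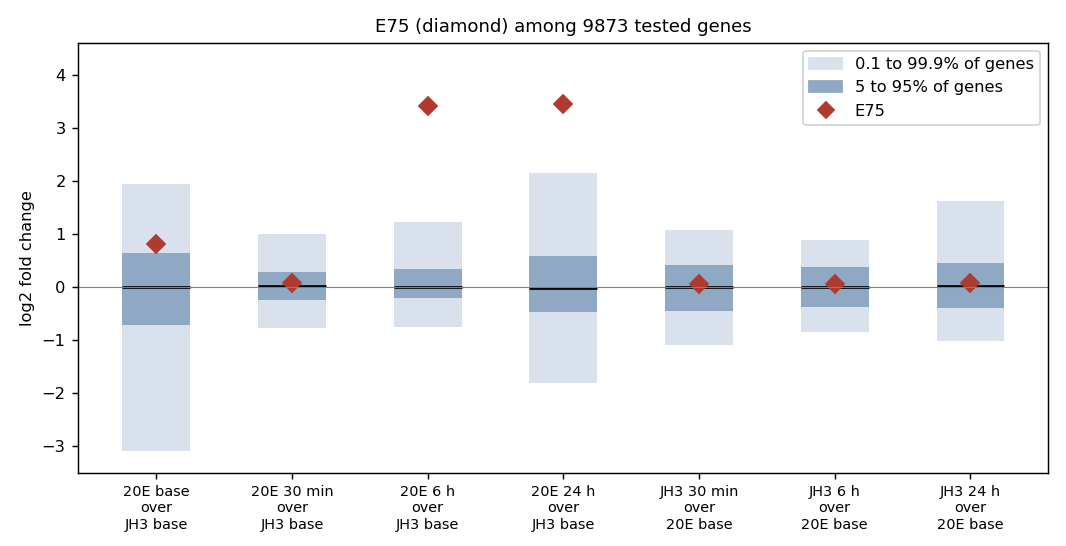
Log2 fold change of E75 (diamonds) beside the spread of all 9873 tested genes in 7 comparisons; pale bars span 0.1 to 99.9% of genes, dark bars 5 to 95%, and the black line is the median. At 6 h and 24 h of 20E the diamond lies at 3.41 and 3.44, where 99.9% of genes lie below 1.23 and 2.15, and after JH3 it lies at 0.06, 0.06 and 0.08, within the dark bars.

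After 5 days in culture E75 was higher in the 20E baseline than in the JH3 baseline, by less than 2-fold. The 20E baseline had 94.3, 85.1, 61.9, 68.0 and 86.2 FPKM, against 59.4, 45.6, 44.3 and 30.6 FPKM in the JH3 baseline. All 5 values were above all 4, though the nearest pair, 61.9 and 59.4 FPKM, was close and both came from run B. The means were 79.1 ± 13.6 FPKM in the 20E baseline (n = 5) and 45.0 ± 11.8 FPKM in the JH3 baseline (n = 4). The log2 fold change was 0.81 (SE 0.23, adjusted p = 0.0116), or 1.75-fold (1.27 to 2.42). This call is one of many, since 21.1% of all tested genes were called between the baselines, 9.7% higher in 20E and 11.4% lower, and E75 was at rank 297 by fold change. Within run A the difference was 1.26 (adjusted p = 0.0792) and within runs B and C 0.47 (adjusted p = 0.249), so that neither part passed alone. It was 0.65 without JH3 baseline replicate 4 (adjusted p = 0.0494), the library with the lowest E75 level of all. The neuron marker sums were 430 to 1154 FPKM in the 20E baseline and 638 to 925 FPKM in the JH3 baseline, with 2 of 10 neuron genes called lower and 0 higher in the 20E baseline. Of 5 glial genes 1 was called higher and 1 lower there, of 8 muscle genes 2 higher and 1 lower, and of 6 hemocyte and matrix genes 1 higher and 0 lower. Their part in the difference was not tested.

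The libraries taken 30 min after each switch gave the culture difference a second time in other cultures. E75 was at 112, 68.2 and 72.1 FPKM in 20E cultures after 30 min of JH3, against 47.9, 52.3, 41.3, 41.2 and 52.1 FPKM in JH3 cultures after 30 min of 20E. The groups did not overlap, and the log2 difference was 0.79 (SE 0.25, adjusted p = 0.0238), where 19.7% of genes were called. This call rested on replicate 1 of the 20E cultures given JH3, the one at 112 FPKM. Without it the difference was 0.48 (adjusted p = 0.218), while without replicate 5 of the JH3 cultures given 20E it was 0.85 (adjusted p = 0.0209). The neuron marker sums were 407 to 696 FPKM in the 20E cultures after 30 min of JH3, against 709 to 1159 FPKM in the JH3 cultures after 30 min of 20E, and the photoreceptor sums 3.52 to 5.82 FPKM against 8.85 to 136 FPKM, neither with any overlap. In the 20E cultures 4 of 10 neuron genes and 1 of 3 tested photoreceptor genes were called lower, and 1 of 5 glial genes higher. Their part in the E75 difference was not tested. Over all times, 15 of the 16 cultures kept in 20E were above all 9 JH3 cultures that had received 20E for no more than 30 min. The exception was replicate 2 among 20E cultures after 6 h of JH3, at 43.3 FPKM, which was the most deeply sequenced library of the series, with 9146 reads on E75.

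Cultures newly given 20E held about 6-fold more E75 than cultures that had spent all 5 days in it. JH3 cultures after 6 h of 20E had 488 ± 69.7 FPKM (n = 6), against 79.1 ± 13.6 FPKM in the 20E baseline (n = 5). The log2 fold change was 2.61 (SE 0.21, adjusted p = 1.54e-10), or 6.09-fold (4.55 to 8.15), where 27.2% of genes were called, 15.1% higher and 12.1% lower. For 24 h of 20E it was 2.63 (SE 0.23, adjusted p = 5.28e-09), or 6.20-fold (4.45 to 8.63), where 16.9% were called, 9.56% higher and 7.3% lower. Every culture of either time was above every culture of the 20E baseline. Of the markers, 3 of 10 neuron and 1 of 5 glial genes were called higher at 6 h of 20E, and 1 glial, 1 of 8 muscle and 2 of 6 hemocyte and matrix genes lower. At 24 h 4 of 10 neuron, 1 of 5 glial and 1 of 3 tracheal genes were called higher and 0 lower. Their part in the E75 difference was not tested. The 20E baseline had its medium changed to one with DMSO for the last 30 min. The labels do not say whether that medium still held 20E. The 6 h and 24 h cultures were in 20E when collected. The length of exposure, the earlier JH3 and that last change of medium cannot be told apart in this comparison.

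Cultures kept in 20E and then switched to JH3 had no detected change of E75 at any time. The levels were 61.9 to 94.3 FPKM in the 20E baseline, 112, 68.2 and 72.1 FPKM at 30 min of JH3, 76.3, 43.3, 124, 81.5 and 106 FPKM at 6 h, and 69.2, 117 and 78.8 FPKM at 24 h. Each time held values on both sides of the baseline mean. The log2 fold changes were 0.06 at 30 min (SE 0.25, adjusted p = 0.934), 0.06 at 6 h (SE 0.22, adjusted p = 0.927) and 0.08 at 24 h (SE 0.27, adjusted p = 0.949). Their intervals ran from 0.733-fold to 1.48-fold, 0.758-fold to 1.43-fold and 0.721-fold to 1.55-fold, so changes within these bounds could not be detected with this number of cultures. limma called 0% of genes at 30 min, with 1008 at an unadjusted p under 0.05, 0.0506% at 6 h and 0.243% at 24 h. Among the few called genes at 6 h and at 24 h was Kr-h1, a zinc finger gene known to respond to juvenile hormone, at 60.5 ± 39.8 FPKM at 6 h against 8.40 ± 4.19 FPKM in the 20E baseline. Within runs B and C alone Kr-h1, at 1.75 at 6 h and 2.12 at 24 h on the log2 scale, did not pass (adjusted p = 0.385 and 0.165). E75 was 0.02 higher at 24 h than at 6 h of JH3 on the log2 scale (SE 0.25, adjusted p = 0.978), where 0.0203% of genes were called. The 3 cultures at 24 h of JH3 lay above all 4 of the JH3 baseline, with a log2 difference of 0.89 (SE 0.29, adjusted p = 0.0589) that did not pass, where 7.9% did, and 0.73 without JH3 baseline replicate 4 (adjusted p = 0.132). These 3 cultures were all in run C, which held 0 libraries of the JH3 baseline and 1 of the 20E baseline. Both comparisons of this group with a baseline thus lean on the run adjustment.

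The effects of the switches on E75 were not equal and opposite. The sum of the effect of the switch to 20E and that of the switch to JH3 would be 0 if they were equal and opposite. For E75 it was 3.47 at 6 h (SE 0.32, adjusted p = 1.48e-07), where 0.253% of genes were called, and 3.52 at 24 h (SE 0.39, adjusted p = 2.00e-06), where 1.95% were called. Within run A the sum at 6 h was 2.90 and did not pass (adjusted p = 0.152).

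**Figure D3:**
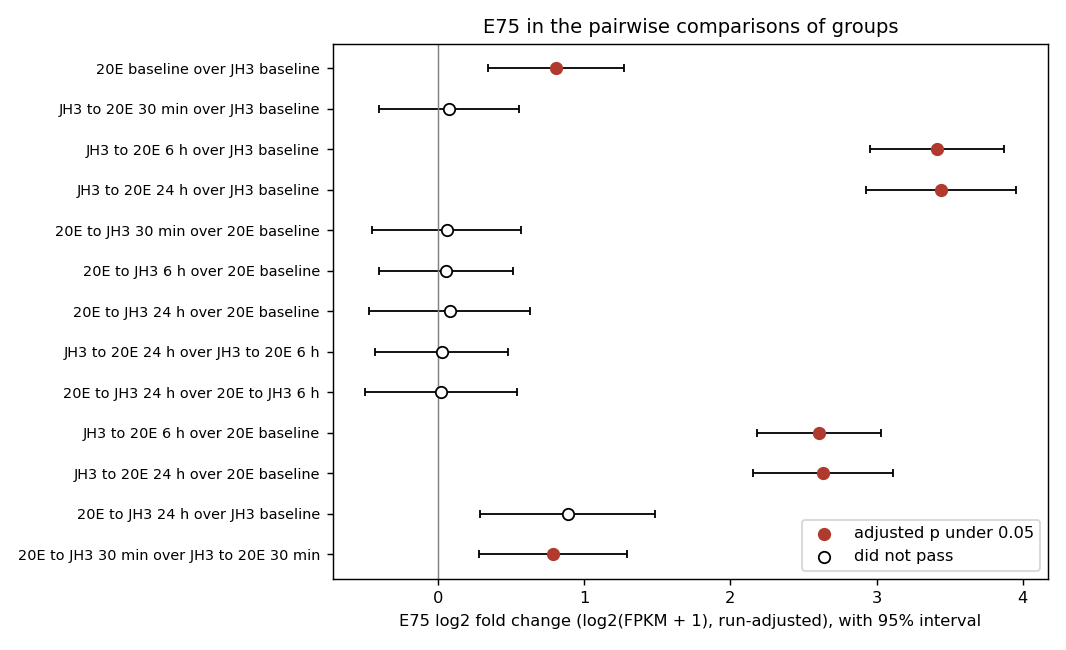
Run-adjusted log2 fold change of E75 in 13 comparisons of groups, with 95% intervals; filled points had an adjusted p under 0.05 by limma. The 4 comparisons of 6 h or 24 h of 20E with a baseline lie between 2.61 and 3.44, and all 3 comparisons of JH3 with the 20E baseline have intervals that span 0.

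Group accounted for 95.2% of the variance of E75 on the log2 scale, and 8 tested genes had a larger share. Spread within groups was modest, with a coefficient of variation from 11.7% in JH3 cultures after 30 min of 20E to 35.6% in 20E cultures after 6 h of JH3. In that widest group the 2 cultures of run A were at 76.3 and 43.3 FPKM and the 3 of run C at 124, 81.5 and 106 FPKM; within run A the log2 difference of this group from the 20E baseline was -0.63 and within runs B and C 0.57, and neither passed. Over all groups run B was 0.147 and run C 0.143 above run A on the log2 scale.

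The rest of the ecdysone cascade was measured through 18 other genes with a value, from lists of receptors, early genes and later genes. Like E75, a few of them were called by 6 h of 20E, while others were called only at 24 h or between the baselines. Of the 18, 3 were higher and 0 lower after 6 h of 20E, with a median log2 fold change of 0.29 against 0.00 for all tested genes, of which 0.476% were higher and 0.0304% lower. This count ran from 0 to 8 over the alternatives, with 0 in run A, 1 in runs B and C and 8 under array quality weights. Cyp18a1, among these 3, passed the filter for testing only through the 6 h and 24 h groups of 20E, where it was high. After 24 h 9 were higher and 3 lower, where 3.18% and 2.04% of all genes were, with a median of 0.73 against -0.02 for all genes. In the 20E baseline over the JH3 baseline 6 were higher and 5 lower, where 9.7% and 11.4% of all genes were, with a median of 0.11 against 0.00 for all genes. The lists were chosen with earlier results of these data known, so the counts describe these genes and test nothing about them as a set.

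**Figure D4:**
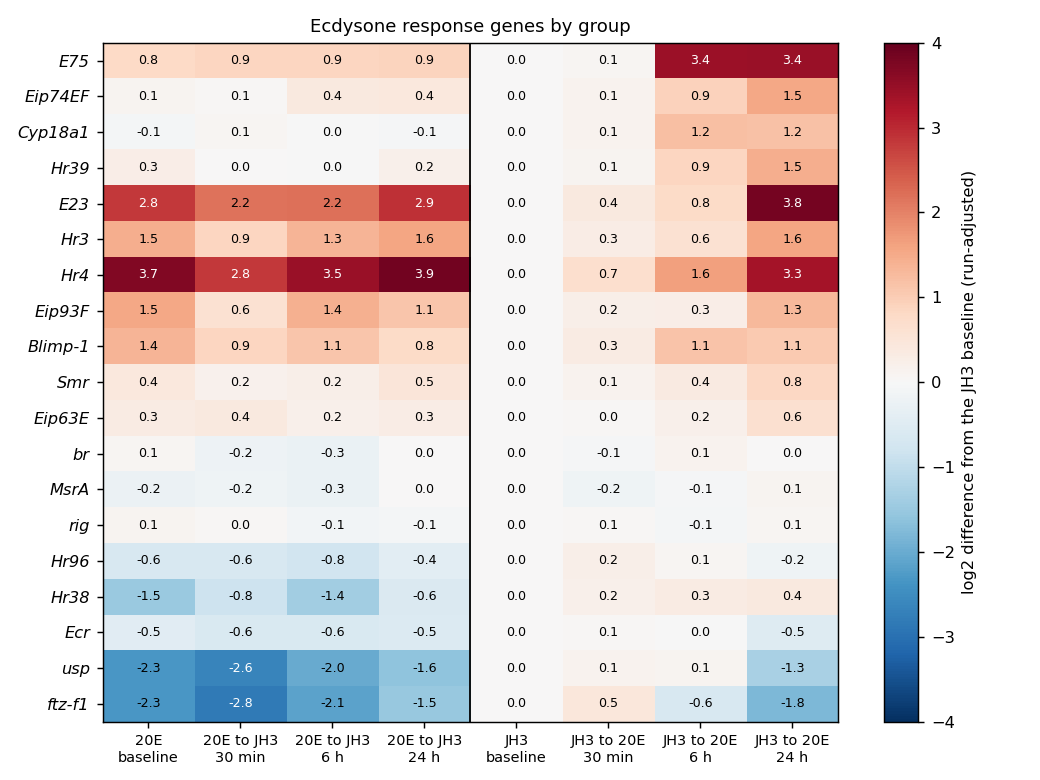
Run-adjusted log2 difference of each ecdysone response gene from the JH3 baseline, by group, with the value printed in each cell; red is higher and blue lower. E75 is at 3.4 in both later columns of 20E and at 0.8 to 0.9 in all 4 groups kept in 20E, while Hr4, E23, usp and ftz-f1 differ most from 0 in the groups kept in 20E and after 24 h of 20E.

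The receptor genes had no detected change at 6 h of 20E. Ecr, which encodes the ecdysone-binding subunit, averaged 8.60 ± 1.02 FPKM at 6 h of 20E against 8.61 ± 1.83 FPKM in the JH3 baseline, a log2 fold change of -0.02 (adjusted p = 1.00). Its partner usp averaged 53.0 ± 10.7 FPKM at 6 h against 47.7 ± 11.01 FPKM in the JH3 baseline, a change of 0.11 (adjusted p = 1.00). Thus E75 was already at its high level while neither receptor message had a detected change. At 24 h usp fell to 19.6 ± 4.99 FPKM (-1.28, SE 0.28, adjusted p = 0.00403), and in the 20E baseline it was at 9.08 ± 3.49 FPKM, against 47.7 ± 11.01 FPKM in the JH3 baseline (-2.34, SE 0.26). Ecr was called lower at 24 h, at 5.80 ± 0.502 FPKM (-0.52, adjusted p = 0.0492). That call was lost without JH3 baseline replicate 1, 2 or 4 or without replicate 2, 3 or 4 of the 24 h group, with adjusted p from 0.0622 to 0.197. The corepressor gene Smr rose at 24 h to 47.5 ± 4.80 FPKM, against 25.1 ± 3.54 FPKM in the JH3 baseline (0.83, SE 0.17, adjusted p = 0.00176).

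Among the early genes, Eip74EF, an ETS transcription factor known in Drosophila as a partner of E75 in the first wave, was called higher at 6 h and 24 h of 20E, with smaller fold changes than E75. It was not called between the baselines (0.10, SE 0.20, adjusted p = 0.762) or between the cultures taken 30 min after each switch (-0.09, SE 0.22, adjusted p = 0.801), where E75 was. Its 6 cultures at 6 h of 20E ran from 23.6 to 36.1 FPKM with a median of 33.5 FPKM, against 10.1 to 25.0 FPKM in the JH3 baseline, and the lowest culture at 6 h lay below the highest of the baseline. The log2 fold change was 0.91 (SE 0.20, adjusted p = 0.0205). The call was lost without JH3 baseline replicate 1, 3 or 4 or without replicate 1, 2 or 6 of the 6 h group (adjusted p from 0.0507 to 0.166), and within runs B and C the value was 0.45. At 24 h Eip74EF was at 51.2 ± 7.40 FPKM, a rise of 1.54 (SE 0.22, adjusted p = 2.92e-05). E23, a transporter that can lower the cell's ecdysone response in Drosophila, had another course. It was at 9.17 ± 2.89 FPKM at 6 h, against 5.05 ± 1.90 FPKM in the JH3 baseline (0.77, adjusted p = 0.973), and at 72.6 ± 14.7 FPKM at 24 h (3.82, SE 0.38, adjusted p = 5.97e-08). In the 20E baseline E23 was at 44.0 ± 18.5 FPKM (2.82, SE 0.35, adjusted p = 8.34e-07). The kinase gene Eip63E rose at 24 h by 0.64 (SE 0.13). The early zinc finger gene br was not called at either time, and neither was MsrA, the ant counterpart of Eip71CD.

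Hr3 and Hr4, nuclear receptors of the next wave, were called at 24 h of 20E and not at 6 h. Hr3, the receptor that the E75 protein can block in Drosophila, averaged 38.2 ± 4.67 FPKM at 6 h of 20E against 23.9 ± 3.71 FPKM in the JH3 baseline (0.61, SE 0.20, adjusted p = 0.386). The 6 cultures, 32.4 to 44.0 FPKM, lay above all 4 of the baseline, 20.1 to 28.7 FPKM, though the difference did not pass over all genes. At 24 h Hr3 was at 74.7 ± 6.13 FPKM (1.59, SE 0.23, adjusted p = 2.21e-05). Hr4 averaged 17.3 ± 4.23 FPKM at 6 h against 5.30 ± 2.58 FPKM in the JH3 baseline (1.65, SE 0.42, adjusted p = 0.0876), again with no overlap, and 51.8 ± 7.79 FPKM at 24 h (3.32, SE 0.48, adjusted p = 2.45e-05). Hr3 and Hr4 were also high in the 20E baseline, at 71.8 ± 26.5 and 81.2 ± 36.8 FPKM, so both reached there a level near or above that of 24 h, while E75 did not. ftz-f1, which Hr3 activates in Drosophila, fell at 24 h to 11.4 ± 3.27 FPKM, against 42.7 ± 20.0 FPKM in the JH3 baseline (-1.81, SE 0.34, adjusted p = 9.35e-04). At 6 h ftz-f1 was at 27.0 ± 7.76 FPKM (-0.63, adjusted p = 1.00).

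Hr39 and Cyp18a1 were the genes on the list of later genes that were called higher, with E75, at 6 h. Hr39, a nuclear receptor that shares binding sites with ftz-f1 in Drosophila, was at 10.8 ± 2.06 FPKM at 6 h against 5.33 ± 0.705 FPKM in the JH3 baseline (0.87, SE 0.16, adjusted p = 0.00322), and at 15.9 ± 1.08 FPKM at 24 h (1.46, SE 0.18, adjusted p = 2.27e-06). Cyp18a1 encodes the P450 that inactivates ecdysteroids in Drosophila. It was at 1.84 ± 0.750 FPKM at 6 h and 1.96 ± 1.04 FPKM at 24 h, against 0.243 ± 0.148 FPKM in the JH3 baseline, and every culture at either time was above every baseline culture. Its log2 fold changes, 1.20 (SE 0.16, adjusted p = 5.30e-05) and 1.18 (SE 0.18, adjusted p = 7.11e-05), understate the ratio because the levels are low. Outside 6 h and 24 h of 20E no library had Cyp18a1 above 0.517 FPKM. It thus passed the filter of 1 FPKM only through the groups where it was high. Its calls, here and in the comparisons below, are therefore not independent support. Within run A alone the 6 h changes of Hr39, 0.83, and of Cyp18a1, 0.98, did not pass (adjusted p = 0.345 and 0.692), and within runs B and C Hr39, at 0.82, did not either (adjusted p = 0.540). Eip93F, the factor of the late adult programme, rose at 24 h to 58.8 ± 14.9 FPKM, against 24.3 ± 6.36 FPKM in the JH3 baseline (1.30, adjusted p = 0.0356). Its call was lost without JH3 baseline replicate 3 or 4 or without replicate 1, 3 or 4 of the 24 h group, with adjusted p from 0.0616 to 0.171. Blimp-1, placed on the same list, was not called at 6 h or 24 h. Its cultures at 6 h, 4.45 to 13.3 FPKM, still lay above all of the JH3 baseline, 2.59 to 4.41 FPKM. Its run-adjusted log2 means were 3.29 at 6 h, 3.21 at 24 h and 2.15 in the JH3 baseline.

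Within runs B and C alone the 24 h changes of Smr (0.68, adjusted p = 0.171), Eip63E (0.55, adjusted p = 0.193), Ecr (-0.70, adjusted p = 0.107) and Eip93F (0.87, adjusted p = 0.445) did not pass.

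Set against the 20E baseline, 24 h of 20E gave some genes of the cascade a higher level, as for E75, while others did not pass. With E75 at 2.63, the genes called higher were Hr39 at 1.19, Eip74EF at 1.43, Cyp18a1 at 1.27, usp at 1.06, Hr38, a nuclear receptor that can pair with usp in Drosophila, at 1.88 and Hr96 at 0.49, which made 6 of 18, and 0 were lower, where 9.56% and 7.3% of all genes were. The Hr38 call was lost without replicate 1 or 3 of the 24 h group (adjusted p from 0.0685 to 0.0775). The Hr96 call was gone without replicate 3 or 4 of the 20E baseline or replicate 1, 3 or 4 of the 24 h group (0.0649 to 0.105). E23, at 1.00 (SE 0.35, adjusted p = 0.0504), lay just outside the threshold. Hr3, at 0.14 (SE 0.21, adjusted p = 0.708), Hr4, at -0.37 (SE 0.44, adjusted p = 0.610), and Eip93F, at -0.25 (SE 0.35, adjusted p = 0.672), did not pass either. At 6 h of 20E 8 of the 18 were called higher than in the 20E baseline and 4 lower, where 15.1% and 12.1% of all genes were. The higher ones were usp at 2.45, Hr38 at 1.80, ftz-f1 at 1.71, Cyp18a1 at 1.28, Eip74EF at 0.81, Hr96 at 0.72, Hr39 at 0.60 and Ecr at 0.43. Of these Cyp18a1, Eip74EF, Hr39, Hr96 and Ecr did not pass within run A alone (adjusted p from 0.0834 to 0.200), and in runs B and C neither Hr38 (adjusted p = 0.0683) nor Ecr (adjusted p = 0.173) did. At that time the same E23, Hr3, Hr4 and Eip93F were called lower than in the 20E baseline, E23 at -2.05, Hr4 at -2.05, Eip93F at -1.29 and Hr3 at -0.84, while E75 was at 2.61. Within run A alone E23, Hr4 and Hr3 did not pass there (adjusted p = 0.0555, 0.214 and 0.152), nor did Eip93F within runs B and C (adjusted p = 0.0742).

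Between the baselines the calls of the other ecdysone genes were larger than that of E75 in several cases. Hr4 (3.69, SE 0.43), E23 (2.82), Eip93F (1.54, SE 0.34), Hr3 (1.46, SE 0.21) and the zinc finger gene Blimp-1 (1.36, SE 0.34) were higher in the 20E baseline. usp (-2.34), ftz-f1 (-2.34, SE 0.31) and Hr96 (-0.65, SE 0.15) were lower. Within runs B and C alone Blimp-1 (1.05, adjusted p = 0.195), Eip93F (0.95, adjusted p = 0.173) and Hr96 (-0.70, adjusted p = 0.0590) did not pass, and within run A Hr96 (-0.58, adjusted p = 0.195) did not either. The remaining calls, Smr (0.42), Ecr (-0.45) and Hr38 (-1.48), each rested on single libraries. The Ecr call needed replicates 3 and 5 of the 20E baseline and replicate 2 of the JH3 baseline, and was gone when any of them was left out (0.0594 to 0.127), and the Smr call was gone without any of 20E baseline replicates 1, 2, 4 and 5 or JH3 baseline replicates 1, 3 and 4. The Hr38 call was lost without any of the 5 libraries of the 20E baseline or JH3 baseline replicates 1, 2 and 3 (0.0611 to 0.129). After JH3 was given to the cultures kept in 20E, 0 of the 18 were called at 30 min, 6 h or 24 h, where 0%, 0.0506% and 0.243% of all genes were, so that this count says nothing particular about the 18.

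Genes of heme synthesis, heme breakdown and nitric oxide signalling were measured too. Heme and nitric oxide act on the E75 protein in Drosophila, though the list also holds genes that act after nitric oxide. Of 11 measured genes 0 were called at 6 h of 20E, where 0.506% of all genes were. Their log2 fold changes ran from -0.41 to 0.20. At 24 h, where 5.22% of all genes were called, 1 was lower, Gycalpha99B, a subunit of the nitric oxide receptor cyclase (-0.57, adjusted p = 0.0441). That call was lost without JH3 baseline replicate 2, 3 or 4 or without any of the 4 libraries of the 24 h group (0.0563 to 0.143). In the 20E baseline the heme oxygenase gene Ho (-0.37) and the heme synthesis gene LOC105189717 (-0.62, SE 0.12) were lower, where 21.1% of all genes were called. The Ho call was gone on leaving out any of replicates 1, 3 and 4 of the 20E baseline or 1 and 3 of the JH3 baseline (0.0507 to 0.206). Nos, which makes nitric oxide, was not called in these 3 comparisons.

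Of 4 measured clock genes, a pathway in which E75 represses Clk in Drosophila, per was called lower at 6 h of 20E, at 2.96 ± 0.568 FPKM against 6.65 ± 2.28 FPKM in the JH3 baseline (-0.88, adjusted p = 0.0234). At 24 h it was at 2.99 ± 1.07 FPKM (-0.85, adjusted p = 0.0153). Of all tested genes 0.506% were called at 6 h and 5.22% at 24 h. The 6 h call of per was lost without JH3 baseline replicate 1, 2 or 3 or replicate 1 or 4 of the 6 h group, and the 24 h call without the same 3 baseline libraries or replicate 2 or 4 of the 24 h group. Clk was called higher at 24 h, by 0.76 (adjusted p = 0.0295), which did not hold without JH3 baseline 1 or without 24 h culture 1, 2 or 4. Of 2 measured juvenile hormone genes, Kr-h1 did not pass after 20E, at 45.8 ± 12.9 FPKM at 6 h against 27.5 ± 13.3 FPKM in the JH3 baseline (0.76, adjusted p = 1.00). Kr-h1 rose by 2.53 at 6 h of JH3 and 2.62 at 24 h, where E75 had 0.06 and 0.08. Of 3 other nuclear receptors, Hnf4, ERR and tll, 0 were called between the baselines, where 21.1% of all genes were. Nor were any called between a switch and its own baseline, where 0% to 5.22% of all genes were. Of 3 genes of ecdysteroid synthesis and uptake and 4 immediate early genes, 0 were called at 6 h or 24 h of 20E. Beside the shares of all genes, counts from lists this short say nothing particular about these pathways.

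The genes whose group means were most like those of E75 were sought over the 8 run-adjusted group means, among 1188 genes that spanned at least 1 log2 unit. Because only 2 of the 8 groups carry most of the E75 signal, and groups share runs and libraries' preparation, these correlations describe likeness and carry no test. Of these genes 11, or 0.926%, had Pearson r above 0.9, and the median r was 0.12. The highest was sing (LOC105191433), known in Drosophila for a membrane protein of muscle cell fusion, with r = 0.98 and rho = 0.90. sing was at 9.36 ± 2.52 FPKM at 6 h of 20E and 6.49 ± 1.23 FPKM at 24 h, against 1.26 ± 0.630 FPKM in the JH3 baseline, and at 1.62 ± 0.473 FPKM in the 20E baseline. It rose by 2.25 at 6 h (SE 0.22, adjusted p = 1.50e-07) and 1.85 at 24 h (SE 0.24, adjusted p = 7.22e-06), and was not called between the baselines (0.27, adjusted p = 0.417).

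Of the 11, 6 have no symbol and are not named here. Among the genes with a symbol the next were Cyp18a1 (r = 0.94), Hr39 (0.92), Eip74EF (0.92) and the growth regulator Myc (0.90, rho = 0.93), followed by the transporter gene MFS3 (0.85), the ETS factor gene Ets98B (0.85) and heca (0.84). Cyp18a1, Hr39 and Eip74EF were members of the ecdysone lists, which were chosen with earlier results of these data known. Cyp18a1 also passed the filter only through the groups where E75 was high, so its r is no support for likeness. Every other list member among the 415 genes with a symbol had a lower r, the next being Blimp-1 (0.57) and Hr38 (0.44). Myc was at 7.10 ± 0.653 FPKM at 6 h of 20E and 8.05 ± 0.570 FPKM at 24 h, against 2.83 ± 0.419 FPKM in the JH3 baseline, with log2 rises of 1.06 and 1.23 (SE 0.13 and 0.14). Among the genes with a symbol the lowest r were those of ken (r = -0.75), Ir76b (-0.66), dan (-0.63) and klu (-0.60), while 1 of all 1188 genes, with no symbol, lay below -0.9. Within the cascade the likeness was low for Hr3 (0.35), E23 (0.38), Hr4 (0.26) and usp (0.10), and ftz-f1 had r = -0.17.

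**Figure D5:**
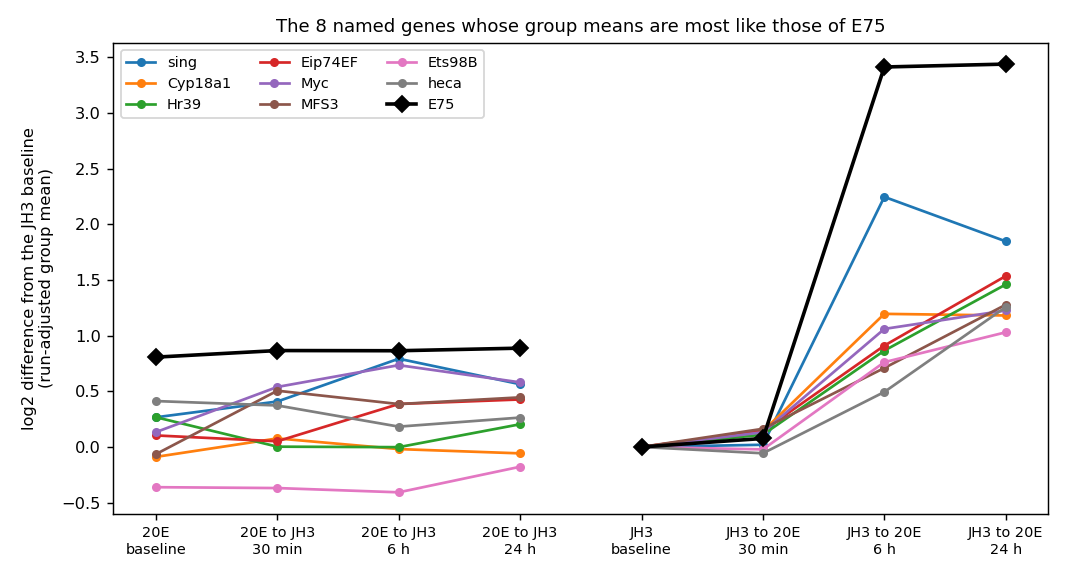
Run-adjusted group means of E75 (black diamonds) and of the 8 named genes most like it, as log2 differences from the JH3 baseline. All 9 lie near 0 at 30 min of 20E and higher at 6 h and 24 h, where E75 reaches 3.41 and 3.44 and sing 2.25 and 1.85.

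The nearest protein-coding genes listed before E75 in the annotation of assembly Hsal_v8.6, the only neighbours tested, were not called at 6 h of 20E. Only the 5 genes listed before E75 were examined, and none of them overlaps it. The nearest of these, 2 tRNA genes, have no value in the table. The nearest protein-coding neighbour, LOC105187477, averaged 13.8 FPKM at 6 h of 20E against 12.1 FPKM in the JH3 baseline (0.18, SE 0.11, adjusted p = 1.00), and the next, LOC105187476, averaged 8.43 FPKM at 6 h against 8.59 FPKM in the JH3 baseline (0.00, SE 0.12). The long noncoding RNA gene LOC112588626, between them and E75, averaged no more than 0.309 FPKM in any group.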

How the data were processed

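Polyadenylated RNA of 35 cultures was sequenced from strand-specific libraries (dUTP method, per the labels' protocols). The authors deposited FPKM values for 14001 genes. They list bcl2fastq, STAR, featureCounts and DESeq2 among their tools, per the submitters' processing notes, without versions or roles. Which genome build and annotation were used is not given in the sources used here, and coordinates are therefore left out. Names came from RefSeq (assembly Hsal_v8.6): 13989 identifiers matched and 4117 had a symbol. Runs A, B and C were read from the sample descriptions.

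Whole reads were recovered for 12439 genes, 9871 of the tested ones, from the steps of the deposited FPKM (100% of values within 0.03 of a whole read) with Python 3.11.15. Steps tracked median-ratio size factors (spread 0.241%) more closely than total reads (8.3%), so scaling between libraries is of that kind. The 63 replicate pairs all differed beyond sampling noise (chi-square per gene at least 7.17), so each library counts once.

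Genes with FPKM of at least 1 in 3 or more libraries (9873) were fitted as log2(FPKM + 1) with limma 3.58.1 in R 4.3.3, on group and run over all 35 libraries, with a trended and robust prior, two-sided, at an adjusted p under 0.05. This scale understates the change of low genes, and run-adjusted folds need not equal the ratio of mean FPKM. The fit and the recovery were tested on simulated data. E75, the gene lists and the tests were chosen with earlier results of these data known. Named genes were called members of the ecdysone lists, Ecr, usp, Hr3, Hr4, ftz-f1 and Kr-h1 whatever they did, and the 8 most and 4 least like E75 among genes with a symbol. Of the listed ecdysone genes, 19 of 28 with E75 had a matching symbol, and all 19 were tested. LOC105190091, MsrA, br, per, Clk, the other nuclear receptors, the heme and nitric oxide genes and the neighbours were named after their values were seen. Same-numbered libraries did not deviate together, so numbers were not used as pairs. Alternatives were other pseudocounts, filters, scalings, run terms and library weights, fits within runs or of the compared groups, a replicate block, voom on recovered reads, and leaving out libraries.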

Additional observations from a re-analysis of the deposited data

Results flagged for a closer look

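Of 120 combinations of gene and group examined among E75 and a part of the listed genes, 5 held 1 culture far from the others. Chance flags about 1 in 20. Hr4 was at 40.1 FPKM in replicate 5 among JH3 cultures after 30 min of 20E, while the other 4 had 4.90 to 6.49 FPKM. br was at 21.7 FPKM in 20E baseline replicate 4, while the other 4 had 5.00 to 9.21 FPKM. Eip74EF was at 23.6 FPKM in replicate 4 among JH3 cultures after 6 h of 20E, while the other 5 had 32.1 to 36.1 FPKM. Smr was at 36.04 FPKM in replicate 4 among 20E cultures after 6 h of JH3, while the other 4 had 28.9 to 30.8 FPKM. Hr96 was at 16.7 FPKM in replicate 2 among JH3 cultures after 24 h of 20E, while the other 3 had 19.9 to 20.4 FPKM. No group held an E75 value flagged in this way, though a single far value is hard to flag among 3 cultures. In the groups of 3, E75 was at 112, 68.2 and 72.1 FPKM after 30 min of JH3. It was at 69.2, 117 and 78.8 FPKM after 24 h of JH3.

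The effects of the switches on E75 departed from equal and opposite by a test of their sum. Their sum was 3.47 at 6 h (limma, adjusted p = 1.48e-07) and 3.52 at 24 h (adjusted p = 2.00e-06), where effects equal and opposite would give 0.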

How the results depend on the processing

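The rise of E75 after 20E kept its direction and its call under all alternatives run, from 3.26 to 3.54 at 6 h (25 alternatives) and from 3.29 to 3.58 at 24 h (22), as did the comparisons with the 20E baseline, 2.27 to 2.83 at 6 h and 2.50 to 2.83 at 24 h, and the sum at 24 h, 3.28 to 3.67. The difference between the baselines did not pass in run A alone (1.26), in runs B and C (0.47) or when only the compared groups were fitted (0.82, adjusted p = 0.0574). The 30 min comparison between cultures did not pass in run A (1.26) or in runs B and C (0.56), and the sum at 6 h did not within run A (2.90). JH3 for 24 h over the JH3 baseline passed with a filter of 5 FPKM (0.89), without the run term (0.96), with voom on recovered reads (0.92) and with a covariate for the length trend (0.89). The cause was not tested.

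Differences near 0 changed sign. At 30 min of 20E these were -0.092 within runs B and C, -0.10 with array weights, -0.086 without JH3 baseline replicate 4 and -0.14 without JH3 baseline replicate 4 and JH3-to-20E 30 min replicate 5 together, an alternative chosen after seeing the data. At 30 min of JH3 the value was -0.011 within runs B and C. At 6 h of JH3 the values were -0.050 with quantile normalization, -0.63 within run A and -0.19 with array weights, and at 24 h of JH3 -0.058 and -0.036 with quantile normalization and array weights. Between 24 h and 6 h of 20E they were -0.00061 within runs B and C and -0.022 with array weights, and of JH3 -0.0075 with quantile normalization and -0.25 within runs B and C.

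Leaving out 1 library at a time gave 0.65 to 0.93 between the baselines, -0.086 to 0.20, 3.26 to 3.54 and 3.299 to 3.58 at 30 min, 6 h and 24 h of 20E, and -0.25 to 0.24, -0.072 to 0.31 and -0.14 to 0.24 at 30 min, 6 h and 24 h of JH3. It gave -0.081 to 0.16 and -0.19 to 0.19 for 24 h over 6 h of 20E and of JH3, 2.50 to 2.70 and 2.52 to 2.76 for 6 h and 24 h of 20E over the 20E baseline, 0.67 to 1.04 for 24 h of JH3 over the JH3 baseline, 0.48 to 0.96 for the 30 min comparison between cultures, and 3.3004 to 3.76 and 3.3026 to 3.67 for the sums.

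Same-numbered libraries did not deviate together more than others (105 pairs, median r = 0.013, 42 over 0.1). Pairs with other numbers gave a median r of 0.0046, with 151 of 427 over 0.1. Of 35 libraries, 8 correlated best with their own number. With the replicate block E75 was at 0.75 between the baselines, 3.32 at 6 h and 3.42 at 24 h of 20E, and no E75 call changed. The block gave 32 called genes at 6 h of 20E (50 without it) and 15 at 24 h of JH3 (24 without it).

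The number of called genes moved more than E75 did. Between the baselines it was 2088, with 163 in run A, 1067 in runs B and C, 692 from the compared groups alone and 3177 with array weights. At 6 h of 20E it was 50, with 4 in run A, 16 in runs B and C and 216 with array weights, and at 24 h 515, with 272 and 2016. voom on recovered reads called 2118 genes between the baselines, 45 at 6 h and 509 at 24 h of 20E, and 0, 5 and 24 at 30 min, 6 h and 24 h of JH3. E75 had at least 2834 reads in every library.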
